A study of Mus musculus with 10 samples.

Results

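F2r, Fam20a and Tmtc2 are genes whose RNA declined by large amounts in a pair of mouse myeloid cell lines kept for 72 h without interleukin-3 (IL-3), and they were chosen for those declines. Each is measured by 1 probe, so the members are 3 probes of 3 genes among 15097 genes with a symbol and 20243 features in all. Total RNA was hybridised in pairs, 1 RNA in Cy5 and 1 in Cy3, to 10 printed arrays of long oligonucleotides. The cells, FDB1, are mouse myeloid progenitors that depend on a growth factor. All carried a mutant of the beta chain common to the receptors for IL-3, IL-5 and GM-CSF. One line had FI-Delta, an activated form, and the other had FI-Delta Y577F (Y577F below), in which a tyrosine of the same mutant is replaced by phenylalanine. Cells of each line were taken from growth in IL-3 (0 h) or after washing and 72 h without factor, which makes 4 RNA groups with 2 cultures per line. No group was kept in IL-3 for 72 h, so washing and time cannot be told apart from the loss of IL-3. No line without a receptor mutant was included. Each mutant was carried by 1 line, so an effect of Y577F cannot be told apart from any other difference between the lines. Whether a line was 1 clone is not given in the sources used here. The arrays form a square, with 3 arrays for the 72 h change in FI-Delta cells, 2 for that in Y577F cells, 3 comparing the lines at 0 h and 2 comparing them at 72 h. Ratios give no level of a single RNA, so the cell type could not be checked by the levels of its markers.

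F2r encodes protease-activated receptor PAR1, a G protein-coupled receptor that thrombin switches on by cutting its extracellular end, after which the new end acts as a tethered ligand. It signals through several G protein families to calcium and cyclic AMP pathways, and in blood it is best known for the response of human platelets to thrombin. Mouse platelets rely on the relatives F2rl2 (PAR3) and F2rl3 (PAR4) instead. Fam20a encodes a secretory pathway pseudokinase that binds and activates Fam20c, the Golgi kinase that phosphorylates many secreted proteins, and its loss disturbs tooth enamel. Tmtc2 encodes a membrane protein of the endoplasmic reticulum with tetratricopeptide repeats, of a family that adds mannose to cadherins.

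The start-site windows of the members are shown because the 3 RNAs fell together. Each is 300 bases long, 250 before and 50 after the transcription start in RefSeq (GRCm38.p6), read 5′ to 3′ on the minus strand, which is the strand of all 3 genes. The F2r window is chr13:95618417-95618716, that of Fam20a chr11:109722189-109722488 and that of Tmtc2 chr10:105574430-105574729. RefSeq places the genes at chr13:95601780-95618466, chr11:109669746-109723163 and chr10:105187663-105574479. The start used for Fam20a lies 925 bases inside the outer end of the gene, so the annotated span of the gene reaches beyond it. Capitals mark matches to the motifs searched.
F2r: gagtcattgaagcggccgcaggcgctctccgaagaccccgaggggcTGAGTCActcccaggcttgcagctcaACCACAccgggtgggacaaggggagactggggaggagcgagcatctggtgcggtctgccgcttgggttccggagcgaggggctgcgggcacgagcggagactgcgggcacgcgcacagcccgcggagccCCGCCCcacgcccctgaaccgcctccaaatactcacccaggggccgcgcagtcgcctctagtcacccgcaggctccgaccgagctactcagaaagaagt
Fam20a: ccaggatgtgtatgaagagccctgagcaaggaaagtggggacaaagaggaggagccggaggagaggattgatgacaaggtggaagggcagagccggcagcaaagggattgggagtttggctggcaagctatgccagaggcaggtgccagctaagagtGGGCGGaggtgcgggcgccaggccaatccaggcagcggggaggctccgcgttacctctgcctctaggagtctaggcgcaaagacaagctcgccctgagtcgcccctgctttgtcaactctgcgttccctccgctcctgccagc
Tmtc2: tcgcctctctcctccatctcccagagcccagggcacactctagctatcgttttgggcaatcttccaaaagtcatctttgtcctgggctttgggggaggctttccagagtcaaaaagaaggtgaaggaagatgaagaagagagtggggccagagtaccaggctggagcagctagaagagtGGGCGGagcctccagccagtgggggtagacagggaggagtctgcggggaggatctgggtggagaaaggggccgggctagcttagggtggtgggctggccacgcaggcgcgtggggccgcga

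The motifs searched, on both strands, were short. The GC box, searched as GGGCGG, was the one motif found in all 3 windows, once in each, at positions -49 in F2r, -93 in Fam20a and -71 in Tmtc2 counted from the start site. Of the 32851 windows in the table, 35.7% held a GC box. F2r alone had a match to the AP-1 motif TGANTCA, at position -204, which 7.81% of windows hold. F2r alone also had a match to the RUNX motif TGTGGT, at position -178, which 16.8% of windows hold. The STAT motif TTCNNNGAA, present in 8.30% of windows, was in none of the 3. Nor was the GATA motif AGATAA, which 11.2% of windows hold. The motif of the ETS factor PU.1, searched as GAGGAAGT, was also in none of them and is in 3.20% of windows. The same held for the E-box CACGTG, with a share of 7.15%. Likewise no member window had the TATA box, searched as TATAAA, which is in 13.6% of all windows. No match overlapped another. The windows were 68.7% G or C in F2r, 61.7% in Fam20a and 60.3% in Tmtc2, against a median of 52.7%, and held 28, 13 and 10 CpG pairs, against a median of 7.

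The 72 h change chose the members, so its values are given as a description with no test. Values are log2 ratios, turned by the array titles so that 72 h is over 0 h and Y577F over FI-Delta. The deposited ratio is likely Cy5 over Cy3, and if it were the reverse every direction here would turn. In FI-Delta cells, F2r stood at -2.10 and -2.58 on time arrays 1 and 2, which carry the same RNA pair with the dyes exchanged, and at -2.45 on array 3. Fam20a stood at -1.17, -2.07 and -2.63 on the same arrays, and Tmtc2 at -1.76, -3.41 and -2.59. All values were far below 0, and array 1 gave the smallest decline for each gene. The gap between the exchanged dyes was 0.48 for F2r, 0.90 for Fam20a and 1.65 for Tmtc2. A larger gap was found in 20.5%, 2.88% and 0.222% of features, and the median gap over all features was 0.25. The mean of Tmtc2 over the pair was -2.59, the same as on array 3, which carried the other culture.

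In Y577F cells, where 2 cultures were compared, F2r was at -1.40 and -1.75, Fam20a at -2.48 and -2.73 and Tmtc2 at -2.41 and -2.52. For F2r every value in Y577F cells was nearer to 0 than every value in FI-Delta cells. The ranges of Fam20a and of Tmtc2 overlapped between the lines. On array 2 of the Y577F time arrays, Fam20a was the lowest of all 20243 features, and Tmtc2 the second lowest (rank 2). In the plot of all 10 arrays, arrays of both dye assignments lie on the same side of 0 on every side of the square.

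**Figure D1:**
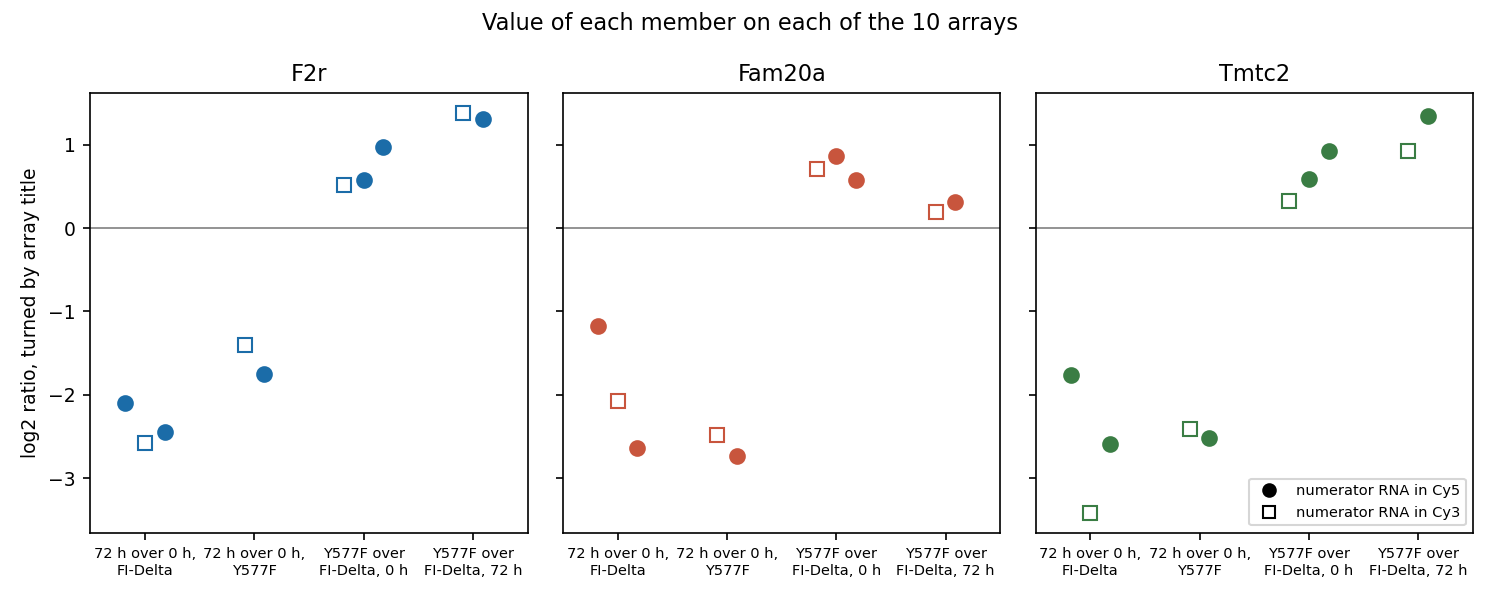
Value of F2r, Fam20a and Tmtc2 on each array (vertical axis, log2 ratio turned by title), grouped by the 4 sides of the square; filled circles have the numerator RNA in Cy5 and open squares in Cy3. All time arrays lie below 0, from -3.41 to -1.17, and all line arrays above 0, from 0.20 to 1.38.

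A fit of all arrays joined the 4 sides and gave each gene's level in the 4 RNA groups, with FI-Delta at 0 h as reference. The 72 h change of F2r was -2.34 ± 0.11 (standard error) in FI-Delta cells, a 5.08-fold decline, and -1.62 ± 0.11 in Y577F cells, a 3.07-fold decline. That of Fam20a was -2.09 ± 0.16, or 4.27-fold, and -2.60 ± 0.15, or 6.05-fold. That of Tmtc2 was -2.76 ± 0.12, or 6.75-fold, and -2.36 ± 0.11, or 5.14-fold. All 3 genes had the same order of groups, with Y577F at 0 h highest, then FI-Delta at 0 h, Y577F at 72 h and FI-Delta at 72 h. In percent of the level in FI-Delta cells at 0 h, F2r was at 158% in Y577F cells at 0 h, 51.5% in Y577F cells at 72 h and 19.7% in FI-Delta cells at 72 h. Fam20a was at 168%, 27.8% and 23.4%, where the last 2 groups differed by 0.25 ± 0.15 (log2) and did not pass, and Tmtc2 at 156%, 30.3% and 14.8%. In bulk RNA, fewer cells with a transcript and less of it in each cell cannot be told apart.

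**Figure D2:**
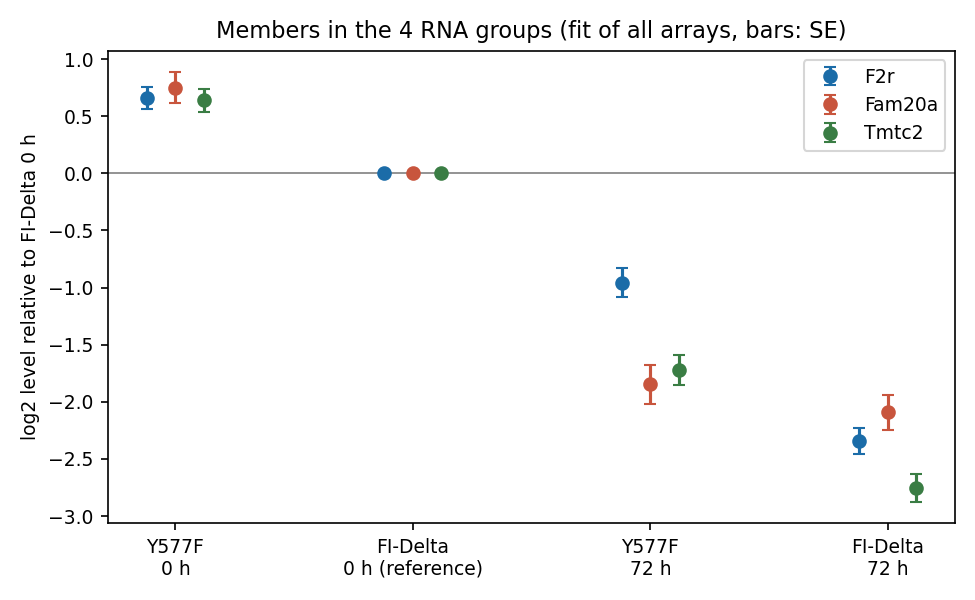
Level of each member in the 4 RNA groups (vertical axis, log2 relative to FI-Delta at 0 h, which is set to 0) from the fit of all arrays; bars are standard errors. After 72 h the F2r level was -0.96 in Y577F and -2.34 in FI-Delta cells, while Fam20a was at -1.85 and -2.09.

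When features were ordered by the lesser of their declines in the lines, Tmtc2 was at place 1, Fam20a at place 2 and F2r at place 5. Places 3 and 8 went to probes without a single gene symbol, and place 4 to Tnfsf11, which encodes the cytokine RANKL (-1.68 ± 0.15 in FI-Delta and -2.62 ± 0.14 in Y577F cells). The other places down to 10 went to Rab27b, a small GTPase of secretory granules (-1.84 ± 0.16 and -1.56 ± 0.15), the unnamed transcript 4932438H23Rik (-1.56 ± 0.10 and -1.98 ± 0.09), the aldo-keto reductase gene Akr1c12 (-1.49 ± 0.13 and -1.71 ± 0.12) and the alpha-catenin gene Ctnna2 (-1.45 ± 0.11 and -1.48 ± 0.10). A decline of at least 2-fold (log2 -1) in both lines was estimated for 26 features, and Tmtc2 and Fam20a were the 2 below -2 in both. These orders follow from the choice of the members and from a fit in which the lines share arrays.

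**Figure D3:**
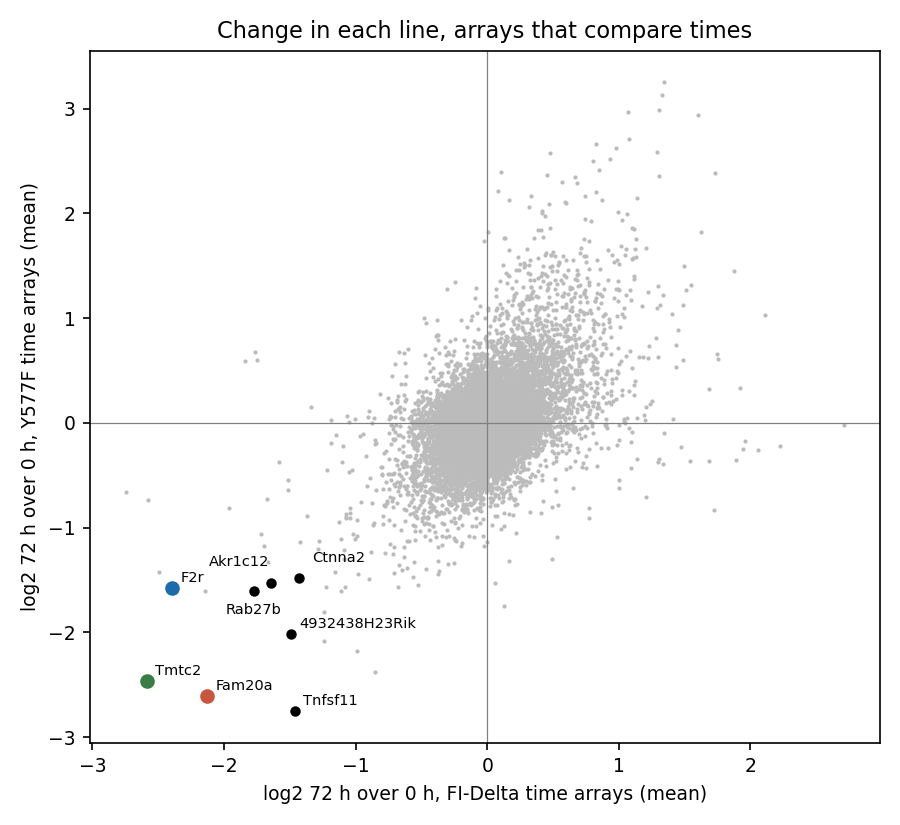
Mean log2 change from 0 h to 72 h on the time arrays of FI-Delta cells (horizontal axis) and of Y577F cells (vertical axis); each grey point is 1 of 20243 features, and the members and the 5 other genes named above are labelled. F2r, Fam20a and Tmtc2 lie at the lower left, with F2r nearer to 0 on the vertical axis (-1.58) than Tmtc2 (-2.47) and Fam20a (-2.61).

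The members were chosen for their 72 h declines, which the arrays that compare the lines do not measure directly. Those arrays ask whether the lines differ in these RNAs at either time. They share RNA extracts with the time arrays, so they are separate hybridisations but not separate cultures. Members and tests were chosen with earlier results of these data known, so the line tests are not shown to be free of that choice. At 0 h, in IL-3, all 3 genes had more RNA in Y577F than in FI-Delta cells on every array. F2r was at 0.51, 0.57 and 0.97 on 0 h arrays 1, 2 and 3, Fam20a at 0.71, 0.86 and 0.58, and Tmtc2 at 0.33, 0.59 and 0.92. In the fit of the 5 line arrays, Fam20a was 1.63-fold higher (0.71 ± 0.10, limma adjusted p = 0.0274), while F2r (0.66 ± 0.11, adjusted p = 0.0536, 95% interval 0.41 to 0.92) and Tmtc2 (0.54 ± 0.10, adjusted p = 0.0742, interval 0.32 to 0.77) did not pass. That is 1 of 3 members called higher, where 0.296% of all features were (0.494% in either direction). The Fam20a call was lost without 0 h array 1 (adjusted p = 0.31) or 0 h array 2 (0.0856) and with scaled arrays (0.0511), with estimates between 0.64 and 0.81 over all alternatives. The fit of all arrays, which includes those that chose the members, called all 3 higher (F2r 0.66, adjusted p = 0.0062, Fam20a 0.75, adjusted p = 0.0186, and Tmtc2 0.64, adjusted p = 0.00954), where 0.934% of features were. When the fit of all arrays had a replicate block in place of the dye term, none of them passed (adjusted p = 0.124 for F2r, 0.324 for Fam20a and 0.239 for Tmtc2). Across all features, array 1 had almost no correlation with arrays 2 and 3 after turning (r = 0.09 and -0.04), while arrays 2 and 3 had r = 0.36. Array 1 had FI-Delta in Cy5 and arrays 2 and 3 had Y577F in Cy5, so dye and RNA pair cannot be told apart here. The FI-Delta dye swap, with the same RNA pair on both arrays, had r = 0.24.

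At 72 h without IL-3, the values of all 3 genes lay above 0 on both arrays. F2r stood at 1.38 and 1.31 on the arrays that compare the lines, Tmtc2 at 0.93 and 1.34, and Fam20a at 0.20 and 0.31. F2r was 2.54-fold higher in Y577F cells (1.34 ± 0.13, limma adjusted p = 0.00076) and Tmtc2 2.20-fold higher (1.14 ± 0.12, adjusted p = 0.00103). Both estimates stayed above 0 under all 10 alternatives, but not all of these can move them. Dropping the dye term, keeping each probe separate or omitting a 0 h array left them at 1.34 and 1.14, with both calls kept. The fit of all arrays and the replicate block draw on the arrays that chose the members. With scaled arrays both calls held, at 1.26 for F2r (limma adjusted p = 0.00388) and 1.05 for Tmtc2 (adjusted p = 0.00396). Omitting 72 h array 1 gave 1.18 and 1.13, and both were higher on omitting 72 h array 2. Fam20a did not pass (0.26 ± 0.11, adjusted p = 0.238), and its interval runs from -0.01 to 0.52. Of the 3 members 2 were called higher, where 3.72% of all features were.

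Between the times, the line difference of F2r was wider at 72 h on both arrays than on any 0 h array, and that of Fam20a was narrower on both. That of Tmtc2 was wider on 72 h array 2 (1.34), while 72 h array 1 (0.93) was about level with 0 h array 3 (0.92). The change of the line difference was 0.68 ± 0.17 for F2r (95% interval 0.29 to 1.07), 0.60 ± 0.15 for Tmtc2 (0.24 to 0.95) and -0.45 ± 0.15 for Fam20a (-0.79 to -0.11). None passed over all features (limma adjusted p = 0.091, 0.096 and 0.166), where 2.17% of features did, and the unadjusted p was 0.00392, 0.00447 and 0.0158, so no member is shown to change differently in the lines by these arrays. Over the alternatives the adjusted p lay between 0.00408 and 0.302 for F2r, 0.067 and 0.472 for Tmtc2 and 0.0987 and 0.556 for Fam20a. F2r passed without 0 h array 3 (0.80, adjusted p = 0.0349), with a replicate block on all arrays (0.71, adjusted p = 0.0371) and in the fit of all arrays (0.72, adjusted p = 0.00408). The last 2 fits draw on the arrays that chose the members, so their p-values are not a test free of that choice. The fit of all arrays called 9.24% of features.

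**Figure D4:**
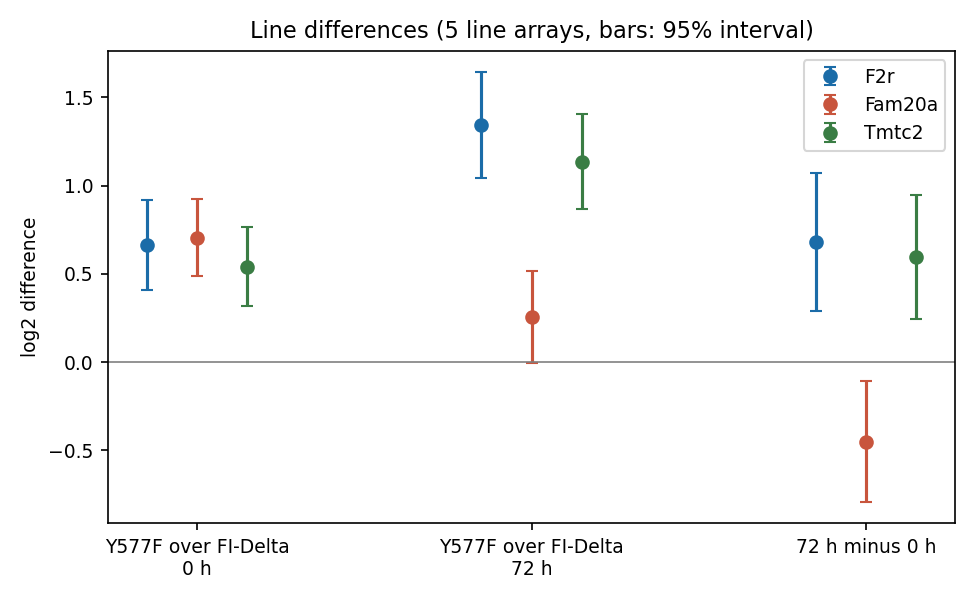
Difference between the lines in each member (vertical axis, log2 Y577F over FI-Delta) at 0 h, at 72 h, and the change between them, from the 5 arrays that compare lines; bars are 95% intervals. The members lie within 0.54 to 0.71 at 0 h, while at 72 h F2r (1.34) and Tmtc2 (1.14) lie above Fam20a (0.26).

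The same change can be read from the time arrays alone, as a description. On them the mean change in Y577F cells minus that in FI-Delta cells was 0.82 for F2r, 0.12 for Tmtc2 and -0.48 for Fam20a, against 0.66, 0.52 and -0.46 from the means of the line arrays. The routes around the square differed by -0.16 for F2r, 0.02 for Fam20a and 0.40 for Tmtc2. The median size of that gap over all features was 0.15, and 9.52% of features had a larger one than Tmtc2. The Tmtc2 line arrays also had a dye term of 0.21 ± 0.08.

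The genes nearest to each member over the 10 turned arrays were ranked by the root mean square difference of their values, which is a description over arrays that share RNA. These include the time arrays that chose the members, so nearness among the members and to other genes with large declines is in part fixed by that choice. F2r and Tmtc2 were 0.52 apart, Fam20a and Tmtc2 0.64, and F2r and Fam20a 0.77, so that neither of the last pair was among the 5 nearest to the other. The 5 nearest to F2r were Rab27b (0.45), Itga2b, the integrin alpha chain of megakaryocytes and progenitors (0.49), Tmtc2, Akr1c13 (0.56) and the mast cell protease gene Cpa3 (0.61). Those nearest to Fam20a were Tnfsf11 (0.53), Sytl3, an effector of Rab27 proteins (0.60), Tmtc2, Ctnna2 (0.67) and 4932438H23Rik (0.71). Tnfsf11 and Sytl3 had line differences of 0.08 and 0.06 at 72 h, after 0.85 and 0.64 at 0 h. Itga2b and Cpa3 had 1.71 and 2.25 at 72 h, after 0.60 and 0.50. Those nearest to Tmtc2 were F2r, Fam20a, Rab27b (0.72), Tnfsf11 and Ctnna2 (both 0.86).

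Relatives of the members and genes of their pathways were counted from lists that leave the members out, with calls from the fit of all arrays (limma, adjusted p under 0.05). In FI-Delta cells 5.19% of all features rose and 2.97% fell, and in Y577F cells 9.28% rose and 8.75% fell. Of 12 other genes of the thrombin system and its receptors, 3 rose and none fell in FI-Delta cells, and 6 rose and 1 fell in Y577F cells. Omitting Y577F time array 1 or 2 gave 3 that rose there. The receptor gene F2rl2 rose in both lines (0.49 ± 0.10 and 0.43 ± 0.10), and F2rl3 fell in Y577F cells (-0.46 ± 0.09) and was at -0.14 ± 0.09 in FI-Delta cells (adjusted p = 0.463). F2, the gene of thrombin itself, rose by 0.49 ± 0.09 in FI-Delta and 1.15 ± 0.09 in Y577F cells, F10, which encodes the enzyme that activates it, by 0.96 ± 0.11 and 2.16 ± 0.10, and the antithrombin gene Serpinc1 by 0.84 ± 0.12 in Y577F cells. Of 32 genes of the G protein relay downstream of the receptor, 10 rose and none fell in FI-Delta cells (1 fell on omitting array 1 of the Y577F series), and 16 rose and none fell in Y577F cells. With an array left out, the rises ran from 7 to 11 in FI-Delta and from 11 to 16 in Y577F cells. The median change of the 32 genes was 0.21 and 0.28, against medians of all features near 0 (-0.01 and 0.01). Those that rose in both lines included the small GTPase gene Rhob (0.96 ± 0.10 in FI-Delta and 0.95 ± 0.10 in Y577F cells), the G protein regulator Rgs2 (0.77 ± 0.09 and 1.06 ± 0.09), the receptor kinase gene Grk5 (0.55 ± 0.12 and 1.08 ± 0.11) and the protein kinase C gene Prkcd (0.49 ± 0.12 and 1.74 ± 0.11). The arrestin gene Arrb1 rose in Y577F cells (1.42 ± 0.16).

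Of 8 kinases related to Fam20a, 1 rose and 1 fell in FI-Delta cells, and 3 rose and 1 fell in Y577F cells. Fam20c, the kinase that Fam20a activates, rose by 0.77 ± 0.15 in Y577F cells and was at -0.10 ± 0.15 in FI-Delta cells (adjusted p = 0.798). At 72 h it was higher in Y577F cells by 1.10 ± 0.17 (limma on the line arrays, adjusted p = 0.00723), a call lost on omitting array 1 at 72 h. Dipk1a rose in both lines (0.71 ± 0.10 and 0.74 ± 0.09), Dipk2a fell in FI-Delta cells (-0.55 ± 0.13), a call lost on omitting array 2 at 72 h, and Dipk1b fell in Y577F cells (-0.88 ± 0.09). Of 17 secreted phosphoproteins and calcium-binding proteins of mineralised tissue, 1 rose and 1 fell in each line. The member that fell was Stc2 in both, which encodes the secreted glycoprotein stanniocalcin 2 (-1.23 ± 0.11 and -1.56 ± 0.10). Those that rose, Dmp1 at 0.33 ± 0.09 and Alpl at 0.29 ± 0.09, were marginal, with adjusted p of 0.0343 and 0.046. The first was lost on omitting array 1 or 2 at 0 h, array 1 at 72 h, arrays 2 or 3 of the FI-Delta series or array 1 of the Y577F series. The second was lost on omitting any array other than array 3 at 0 h and array 2 of the Y577F series.

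Those relatives of Tmtc2 that were measured, Tmtc3 and Tmtc4, did not follow it. Tmtc3 was at 0.11 ± 0.08 in FI-Delta and -0.08 ± 0.08 in Y577F cells, and Tmtc4 at -0.08 ± 0.09 and -0.16 ± 0.09, and neither passed. Of 8 measured genes of the family and of O-mannosylation, 1 rose and none fell in each line, the dolichol phosphate mannose synthase subunit gene Dpm2 (0.40 ± 0.09, lost on omitting array 3 of the FI-Delta series, and 0.51 ± 0.08). Of 27 cadherins and protocadherins, 1 rose and 3 fell in FI-Delta cells, and 3 rose and 1 fell in Y577F cells, with Cdh17 lower in both (-0.83 ± 0.12 and -1.15 ± 0.12). Cdh1 (0.61 ± 0.16) rose and Pcdh15 (-0.50 ± 0.11) fell in FI-Delta cells, and Celsr3 (0.47 ± 0.10) and Cdh4 (0.39 ± 0.08) rose in Y577F cells. The rise of Cdh1 was lost on omitting either array at 72 h, array 2 at 0 h, array 2 of the FI-Delta series or array 1 of the Y577F series, and 2 cadherins rose on omitting array 1 of the FI-Delta series. In Y577F cells 1 cadherin rose on omitting either of its arrays, and 2 fell on omitting array 3 of the FI-Delta series. Of 15 genes of calcium handling in the endoplasmic reticulum, 1 rose (Stim1, 0.55 ± 0.10) and 1 fell (Calr, -0.50 ± 0.11) in FI-Delta cells, and none rose and 2 fell in Y577F cells (Rcn1, -0.52 ± 0.08, and Stim2, -0.33 ± 0.10). The Calr call was lost on omitting array 1 at 0 h or array 3 of the FI-Delta series, and omitting array 2 of that series gave 2 that fell. In Y577F cells the 2 that fell became 1 on omitting array 1 or 2 at 0 h or array 1 at 72 h. The same held on omitting array 1 or 3 of the FI-Delta series or either of the line's own arrays. Omitting the second of the line's own arrays also gave 1 that rose. On omitting array 3 at 0 h or array 2 of the FI-Delta series, 3 fell.

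Markers of cell types changed over the same 72 h, and their part in the members' declines was not tested. Over all features, 5.19% rose and 2.97% fell in FI-Delta cells, and 9.28% rose and 8.75% fell in Y577F cells. Of 22 megakaryocyte and platelet markers, 4 rose and 3 fell in FI-Delta cells and 5 rose and 5 fell in Y577F cells, with changes from -1.99 to 1.08 and from -1.56 to 1.04. Itga2b fell in both lines (-1.99 ± 0.11 and -0.85 ± 0.10), as did Rab27b, while the lipoxygenase gene Alox12 rose in FI-Delta cells (1.08 ± 0.14). The von Willebrand factor gene Vwf rose in both (0.38 ± 0.10, adjusted p = 0.0465, in FI-Delta and 1.04 ± 0.10 in Y577F cells). Omitting either array at 72 h, array 2 at 0 h, or array 2 or 3 of the FI-Delta series gave 2 rises in place of 4. In Y577F cells omitting either of its own arrays gave 3 rises, and omitting the first gave 3 declines. Among 17 markers of mast cells and basophils, 7 fell and 1 rose in FI-Delta cells and 6 fell and 3 rose in Y577F cells, with Cpa3 lower in both (-2.57 ± 0.10 and -0.77 ± 0.10). Also lower in both were the granzyme gene Gzmb (-2.67 ± 0.12 in FI-Delta and -0.74 ± 0.12 in Y577F cells), the protease gene Mcpt8 (-0.83 ± 0.12 and -1.06 ± 0.12) and the transcription factor gene Gata2 (-1.08 ± 0.11 and -0.90 ± 0.11). The IgE receptor chain gene Fcer1a fell in FI-Delta cells (-1.44 ± 0.21). The single rise in FI-Delta cells, that of Hpgds (0.35 ± 0.09), was lost on omitting array 1 or 2 at 0 h, array 1 at 72 h, or array 2 or 3 of the FI-Delta series. Those that rose in Y577F cells were Hpgds (0.69 ± 0.09), Mitf (0.57 ± 0.09) and Kit (0.35 ± 0.08). Of 12 macrophage markers, 9 and 11 rose in FI-Delta and Y577F cells and none fell, with the lysosomal protease gene Ctss at 1.48 ± 0.10 and 3.14 ± 0.09. Of 13 neutrophil markers, 11 rose and none fell in FI-Delta cells, and 2 rose and 6 fell in Y577F cells. The median change was 1.05 in FI-Delta and -0.41 in Y577F cells. The largest called change in Y577F cells was the decline of the protease gene Ctsg (-1.57 ± 0.10). The 2 that rose there were Csf3r (1.29 ± 0.10) and Mmp8 (0.93 ± 0.16, and 2.21 ± 0.17 in FI-Delta cells). Of 8 erythroid markers, 1 fell in FI-Delta cells, the globin gene Hba-a1 (-1.30 ± 0.08, and -1.82 ± 0.08 in Y577F cells), and 2 fell and 1 rose in Y577F cells, a rise lost on omitting either of that line's arrays. Of 12 stromal and endothelial markers, 1 fell in FI-Delta cells (Pdgfrb, -1.08 ± 0.11), where 1 rose on omitting array 1 at 0 h or array 1 of the FI-Delta series. In Y577F cells 1 rose (Dcn, 1.02 ± 0.11) and 1 fell (Pecam1, -0.47 ± 0.10), against 2 and 0 on omitting array 2 of the Y577F series.

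Between the lines at 72 h, on the line arrays, 6 mast cell and basophil markers were higher and 1 lower in Y577F cells, 8 macrophage markers were higher and 1 lower, and 12 neutrophil markers were lower and none higher, where 3.72% of features were higher and 3.86% lower (7.59% in all). Of the megakaryocyte and platelet markers 3 were higher and 2 lower. With a line array left out these counts ran from 4 to 6, 6 to 9 and 12 to 12, and from 1 to 4 and 1 to 2 for megakaryocyte and platelet markers. At 0 h the counts were 2 higher among mast cell markers, 2 higher among megakaryocyte markers, 3 higher among macrophage markers and 9 lower among neutrophil markers. Of all features 0.296% were higher and 0.198% lower. With an array left out the marker counts fell as low as 0, 0, 0 and 3.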

How the data were processed

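Each deposited value was taken as a log2 ratio of an array's Cy5 over Cy3 signals that the authors had already normalised. Neither the base nor the direction of the ratio was stated. Per the submitters' processing notes they used limma, with no version or settings, and how background was corrected and arrays normalised was not stated there. Base 2 was assumed because limma writes log2 ratios. Spot intensities were not used, so precision rests on the few arrays. After 1243 control spots of 23040 were left out, probes sharing a single symbol were averaged, which gave 20243 features. Arrays were turned by their titles.

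Line comparisons were fitted with limma 3.58.1 (R 4.3.3) on the 5 line arrays with a dye term (2 residual and 6.01 prior degrees of freedom), and time changes on all arrays, with the FI-Delta dye swap averaged (9 hybridisations, 5 residual degrees of freedom). Tests were two-sided and adjusted by Benjamini-Hochberg over all features, with a call at adjusted p under 0.05. The code was tested on simulated data. The p-values treat arrays as independent although they share extracts. Members, gene lists, motifs and tests were chosen with earlier results of these data known. Named besides the members are the 5 nearest features to each, the 5 next by lesser decline, up to 3 called genes of each of 13 lists in each line by size of change, and, picked by family, the measured PAR, Fam20 and Tmtc relatives. The mast cell and basophil markers that rose are named as well. For all 3 members the gene identifier in the platform annotation matched RefSeq.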

Additional observations from a re-analysis of the deposited data

How the results depend on the processing

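The estimates of all 3 members kept their sign under every alternative run in all line comparisons. They also did so in both time comparisons, where the choice of members for large declines left little room for another outcome. At 0 h, F2r (0.66) and Tmtc2 (0.64) passed only in the fit of all 10 arrays, which includes the time arrays that chose the members. Fam20a did not pass with arrays centred and scaled (0.81), with the replicate block (0.67) or without 0 h array 1 or 2. Its values ran from 0.64 to 0.78 over the arrays left out. For the change of the line difference, F2r passed without 0 h array 3, with values from 0.54 to 0.86 over the arrays left out. It also passed in the fit of all 10 arrays (0.72) and with the replicate block (0.71). Both of these draw on the time arrays that chose the members, so they are not a test free of that choice. The replicate block gives each RNA extract, by its number in title order, a coefficient in the fit of all arrays without dye term, since the 5 line arrays alone leave it no residual degrees of freedom. Array labels give the numbers of the lines the other way round on arrays with Y577F in Cy5, so this pairing is not certain. The counts of called features moved more. At 0 h the count of 100 became 287 with all 10 arrays, 53 without dye term, 63 with scaled arrays, 22 with the replicate block and from 10 to 110 with an array left out, with 10 without 0 h array 1 and 63 without 0 h array 2. At 72 h 1536 became 2609 with all arrays, 954 without dye term, 914 with scaled arrays and from 381 to 1744 with an array left out, with 557 without 72 h array 1 and 381 without 72 h array 2. For the change of the line difference 440 became 1871, 247, 105 and from 70 to 446 in the same order, with 70 without 72 h array 2 and 245 without 72 h array 1 or 0 h array 1. Over time, FI-Delta's 1652 became 912 on its own time arrays, 544 with the replicate block and from 887 (without time array 3) to 1953 with an array left out, and Y577F's 3649 became 2224, 1721 and from 1949 (without time array 1) to 3627. The causes were not tested. Background correction and dim spots could not be varied, since no intensities were used. Tmtc2 in FI-Delta cells ranged from -3.02 to -2.54 over 15 alternatives.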
